A study of Mus musculus with 8 samples.

Results

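The lymphocyte genes are 33 genes that mark T cells, natural killer (NK) and cytotoxic lymphocytes, and B cells. Each gene with a probe set annotated to its symbol alone was read from that probe set, which gave 31 of the 33 genes a value, out of 22180 genes on the array. They comprise 14 of 16 T cell genes, all 11 NK and cytotoxic genes and all 6 B cell genes, and each had 1 probe set. Cd247 and Lck are not analysed here. The question was whether any single tumour shows lymphocytes.

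Gene expression was measured on whole-transcript arrays in 8 primary tumours, 1 array per tumour. Mouse neural crest cells, the embryonic cells that give rise to sympathetic neurons and glia, were transduced with N-Myc, and both p53+/- and p53-/- cells were in the mixture. About 10000 cells were placed under the skin 48 hours after infection, and tumours were removed after about 50 days. Both nude and C57Bl/6 animals served as hosts. Which of them carried a given tumour is not in the labels, so all 8 tumours form 1 group that no value below divides by host. Neither untransduced cells nor lymphoid tissue were analysed here, and no source used here gives the age of the mice. Separate animals or cultures are not stated either, so the tests cover only the spread between these samples, which may be technical.

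T cells recognise antigen through a receptor whose signal is carried by the CD3 chains and passed on by kinases such as Zap70, while the coreceptors Cd4 and Cd8 divide helper from cytotoxic cells. NK cells and cytotoxic T cells kill with perforin and granzymes stored in granules, and B cells signal through Cd79a and Cd79b, which sit beside the surface antibody. Nude mice lack a working thymus and therefore have few mature T cells, but they retain NK and B cells, whereas C57Bl/6 mice have all these types. In tumour tissue, fewer cells of a type and less RNA per cell cannot be told apart.

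Levels are given in log2 units throughout, with medians of 5.63 to 5.75 per array. Receptors for odours, pheromones and bitter taste, which most tissues do not use, set the background of each array: the 95th percentile of their 1440 probe sets, between 5.45 and 5.66. These are called the receptor genes below. The neuronal list, a check of the tumour label, was above it in full (7 of 7 genes, limma). Precision is limited by the 8 arrays.

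Most lymphocyte genes lay within the range of the receptor genes. Over the 8 tumours, limma called 5 of the 31 above background (adjusted p under 0.05), where it called 57.3% of all genes. The 5 were Cd4 of the T cell genes, Tbx21, Prf1 and Nkg7 of the NK and cytotoxic genes, and Cd22 of the B cell genes. The median over the 31 genes of the mean level was 4.95, against 6.26 over all genes and 3.47 over the receptor genes. All 31 means were above the median of the receptor probe sets, from the 52.9th percentile of those probe sets for Klrk1 to the 99.1st for Prf1. The call therefore depends on the background level: 24 of the 31 passed against the 75th percentile of the receptor genes, as 81.9% of all genes did, and 0 against the 99th, as 41.9% of all genes did (limma, adjusted p under 0.05).

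**Figure D1:**
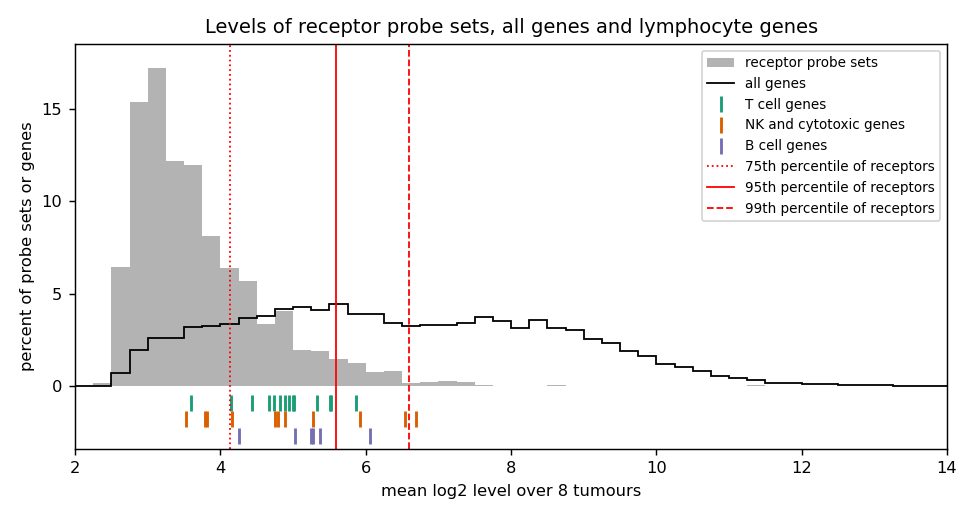
Mean log2 level over the 8 tumours (x axis) of the receptor probe sets (grey) and of all genes (black line), as a percent of each (y axis), with a tick below for each lymphocyte gene and red lines at the mean 75th, 95th and 99th percentiles of the receptor probe sets. Most ticks fall left of the solid line, and 5 fall right of it.

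Counted tumour by tumour, 4 to 7 of the 31 genes were above the background of their own array. There were 7 in tumours 3 and 6, 6 in tumours 4 and 7, 5 in tumours 5 and 8, and 4 in tumours 1 and 2. Of all genes, 59.4%, 58.9%, 61.2%, 61.1%, 61.1%, 61.3%, 60.3% and 60.1% were above it in tumours 1 to 8, so the share of lymphocyte genes was lower in every tumour. The NK and cytotoxic genes gave 3 in every tumour and the B cell genes 1 in every tumour. The T cell genes gave 0 in tumours 1 and 2 and at most 3, in tumours 3 and 6. Tumours 3 and 6 also had the lowest backgrounds (5.45 and 5.54, with 5.57 to 5.66 elsewhere). Cd5 passed there at 5.60 and 5.59, levels under the background of tumours 1, 2, 4 and 5. In all, 23 of the 31 genes were above background in 0 tumours, 4 in all 8, and 4 in some of them.

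The chains of the T cell receptor complex were below background in every tumour. Cd3e was at 5.02, 5.05, 5.17, 5.25, 5.30, 5.10, 4.58 and 4.66 in tumours 1 to 8, a mean of 5.01 ± 0.26 (SD, n = 8). Cd3d was at 4.64, 4.75, 4.84, 5.11, 4.90, 4.62, 4.69 and 4.40. Their highest levels fell in different tumours, Cd3e in tumour 5 and Cd3d in tumour 4, and both genes were low in tumour 8. Cd3g differed from both, with 5.42 in tumour 3 against 4.04 to 4.74 in the other 7. Even there it lay just under the background of that array (5.45). All 3 genes are on chromosome 9 in the GRCm38.p6 gene table.

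Of the coreceptors, Cd4 was above background in 6 tumours and both Cd8 chains in none. Cd4 was at 6.49 in tumour 4 and between 5.50 and 6.01 in the other 7, with a mean 0.27 ± 0.10 above background (SE, limma, adjusted p = 0.0209). In mice Cd4 is also found on some dendritic cells, so by itself it marks more than T cells. Cd8a ranged from 4.82 to 5.23 (median 4.99) and Cd8b1 from 4.62 to 5.21 (median 4.92). The tumour with the highest Cd8a level was tumour 5, and that with the highest Cd8b1 level was tumour 3.

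Signalling and surface genes of T cells were likewise low. Zap70, the kinase that binds the activated receptor complex, was above background in tumour 4 alone (5.69, with 5.13 to 5.51 in the other 7). Cd5, a surface receptor that dampens receptor signals, was above background in 3 tumours and highest in tumour 7 (5.87, with 5.26 to 5.60 in the other 7). Trat1, an adaptor of the receptor complex (3.42 to 3.77), the adhesion molecule Cd2 (4.73 to 4.96), and the costimulatory receptor Cd28 (4.79 to 5.13) were below background in all 8. The inhibitory receptor Ctla4 lay between 3.94 and 4.37, and Foxp3, the transcription factor of regulatory T cells, between 4.47 and 4.91. None of these genes ran over a range as wide as 1 on the log2 scale.

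Il7r, a receptor chain that T cells and lymphoid precursors need to survive, varied most. Its level was 6.38 in tumour 6 and 6.36 in tumour 3, both above background, while the other 6 tumours lay between 4.93 and 5.44. Its SD over the tumours was 0.56, which lay above that of 94.2% of all genes. Of the 31 genes, 3 had an SD above the 95th percentile of the receptor probe sets (0.30): Il7r, Cd3g (0.45) and Cd4 (0.31). Over all genes 21.8% did. The mean of Il7r was called neither above nor below background (-0.07 ± 0.19, SE, limma, adjusted p = 0.722).

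**Figure D2:**
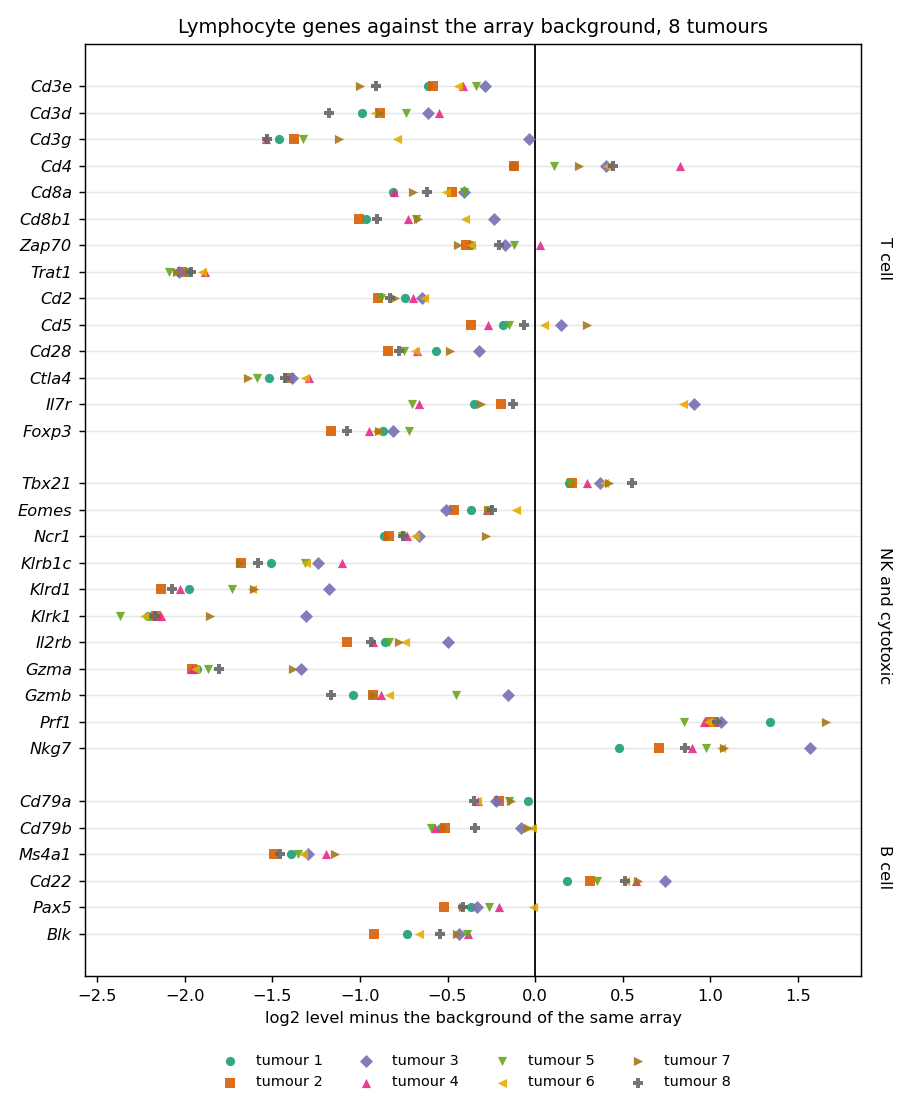
Level of each lymphocyte gene minus the background of the same array (x axis, log2), with 1 symbol per tumour and the background at the vertical line. Prf1, Nkg7, Tbx21 and Cd22 lie right of the line in all 8 tumours, and Il7r splits into tumours 3 and 6 at the right and the other 6 at the left.

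NK receptors were below background in all 8 tumours. Ncr1, an activating receptor found on NK cells, was at 5.29 in tumour 7 and between 4.76 and 4.93 in the other 7. It alone of the 31 genes had a single tumour separated from the rest by more than Dixon's critical gap, which 7.85% of all genes had. Klrk1, an activating receptor for stress ligands, was at 4.14 in tumour 3 and between 3.26 and 3.72 in the other 7. Klrd1, which pairs with further receptors of its family, was at 4.27 in tumour 3 and between 3.50 and 3.97 in the other 7. Klrb1c, a classical NK cell surface marker of C57BL mice, was highest in tumour 4 (4.56, with 3.89 to 4.32 in the other 7). The 4 receptors thus had their highest levels in 3 different tumours. Klrb1c, Klrd1 and Klrk1 are all on chromosome 6.

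The granule genes divided. Prf1, perforin, averaged 6.70 ± 0.26 (SD, n = 8), 1.11 ± 0.09 above background (SE, limma, adjusted p = 1.32e-07). It was highest in tumour 7 (7.23) and next in tumour 1 (6.97), with 6.48 to 6.63 in the other 6. Nkg7, a granule membrane protein, averaged 6.54 ± 0.27, 0.95 ± 0.10 above background (SE, limma, adjusted p = 2.09e-06), with 7.02 in tumour 3 and 6.11 to 6.65 in the other 7. The granzymes were below background in every tumour. Gzmb reached 5.30 (tumour 3) and 5.18 (tumour 5), and the other 6 tumours lay between 4.41 and 4.78. Gzma reached 4.19 (tumour 7) and 4.11 (tumour 3), and the other 6 lay between 3.59 and 3.77. Perforin and Nkg7 were therefore highest in different tumours, and Prf1 was low (6.51) in tumour 3, where Nkg7 and Gzmb were highest.

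Of the transcription factors of NK and cytotoxic cells, Tbx21 was above background in all 8 tumours and nearly flat (5.82 to 6.12, mean 0.33 ± 0.06 above background, SE, limma, adjusted p = 0.000172). Eomes, which also acts in the embryo and the developing brain, was below background throughout (4.94 to 5.43) and had its lowest level in tumour 3. Il2rb, a cytokine receptor chain of NK and T cells, lay between 4.56 and 4.95.

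The B cell genes showed the smallest spread, with a median SD of 0.15 over the 6 genes, against 0.20 over all genes and 0.16 over the receptor genes. Cd22, an inhibitory receptor of B cells, was above background in all 8 tumours (5.81 to 6.23, mean 0.47 ± 0.07 above background, SE, limma, adjusted p = 3.33e-05). The signal chains Cd79a (5.20 to 5.59) and Cd79b (5.04 to 5.53) and the surface marker Ms4a1, known as CD20, (4.12 to 4.47) were below it in all 8. So were Pax5, the transcription factor that sets B cell identity, (5.11 to 5.52) and the kinase Blk (4.71 to 5.28). The highest levels fell in tumour 1 for Cd79a, tumour 7 for Cd79b, tumour 6 for Pax5 and tumour 4 for Ms4a1, Cd22 and Blk.

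To ask of each tumour whether it differed from the rest, all genes were fitted with limma in 8 contrasts, each 1 tumour minus the mean of the other 7. Each of the 31 lymphocyte genes thus gave 8 pairs of gene and tumour. The lone tumour has no replicate and is taken to vary like the others, and the 8 contrasts share their samples. No lymphocyte gene passed in any of the 8 contrasts (0 calls, limma, lowest adjusted p = 0.361, for Cd4 in tumour 4), where 0.166% of all gene and tumour pairs did. At an unadjusted p under 0.05, 14 of the pairs of lymphocyte gene and tumour were higher and 2 lower, against 3.12% of all pairs higher and 2.14% lower. The test does not show that the tumours were alike: a gene has to differ widely in 1 of 8 arrays to pass over 22180 genes.

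Tumour 3 had the most lymphocyte genes at an unadjusted p under 0.05 in the higher direction, 5 of 31, where 2.96% of all genes were. They were Cd3g (1.12 ± 0.23 above the other 7, difference ± SE, limma, adjusted p = 0.386), Klrk1 (0.70 ± 0.15, adjusted p = 0.458), Gzmb (0.58 ± 0.23, adjusted p = 0.813), Nkg7 (0.55 ± 0.23, adjusted p = 0.818) and Klrd1 (0.55 ± 0.19, adjusted p = 0.794). Eomes was lower (-0.38 ± 0.14, limma, adjusted p = 0.801), as 3.07% of all genes were at the same threshold. The other chains of the receptor complex did not follow Cd3g: the difference was 0.17 ± 0.26 for Cd3e and 0.11 ± 0.22 for Cd3d (limma, adjusted p of 0.979 and 0.990). Il7r stood 0.97 ± 0.43 above the others (limma, adjusted p = 0.833). Tumour 6, whose levels of Il7r and Cd3g (4.74) were next highest or highest, is part of that set. With tumour 6 left out, the difference of tumour 3 was 1.19 ± 0.17 for Cd3g and 1.13 ± 0.22 for Il7r (SE, limma). For Cd3g it was 1.07 to 1.14 when any 1 of the other tumours was left out. With tumour 3 left out, Il7r in tumour 6 stood 1.15 ± 0.22 above the others and Cd3g 0.52 ± 0.16. Both removals were picked by the levels seen, and taking out a high tumour widens the difference by construction. In tumour 3, 4 of the 31 genes (Cd3g, Il7r, Klrk1 and Gzmb) exceeded the others by more than the 99th percentile of the receptor genes (0.55), and 4.17% of all genes did. By the same measure there was 1 lymphocyte gene in tumour 4 (Cd4, 5.18% of all genes), in tumour 6 (Il7r, 10.3% of all genes) and in tumour 7 (Prf1, 3.52% of all genes), and 0 in the other 4 tumours.

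In tumour 4 the genes at an unadjusted p under 0.05 were Cd4 (0.72 ± 0.22 above the other 7, limma, adjusted p = 0.361), Klrb1c (0.46 ± 0.17, adjusted p = 0.516), Cd3d (0.42 ± 0.18, adjusted p = 0.590) and Zap70 (0.41 ± 0.17, adjusted p = 0.570). These were 4 of 31, all higher, where 5.64% of all genes were. Cd4 and Klrb1c stayed at that threshold whichever other tumour was left out. Cd3d, Zap70 or both dropped out without tumour 1, 2, 6 or 7. In tumour 7 there were 4 higher, Prf1 (0.61 ± 0.22), Ncr1 (0.46 ± 0.13), Gzma (0.43 ± 0.17) and Cd5 (0.40 ± 0.17), and 1 lower, Cd3e (-0.50 ± 0.21, limma, adjusted p above 0.99 for all 5). Of all genes 1.95% were higher and 2.48% lower there. Tumour 6 had Il7r alone (0.99 ± 0.42, limma, adjusted p = 0.524), where 4.96% of all genes were higher. Tumours 1, 2, 5 and 8 had 0 lymphocyte genes higher, against 1.18%, 0.915%, 3.94% and 3.41% of all genes. The genes differed from tumour to tumour: T cell and NK or cytotoxic genes were among them in tumours 3, 4 and 7, and B cell genes in none. Many were below background there, and no tumour had Cd3e, Cd3d and Cd3g at this threshold together.

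**Figure D3:**
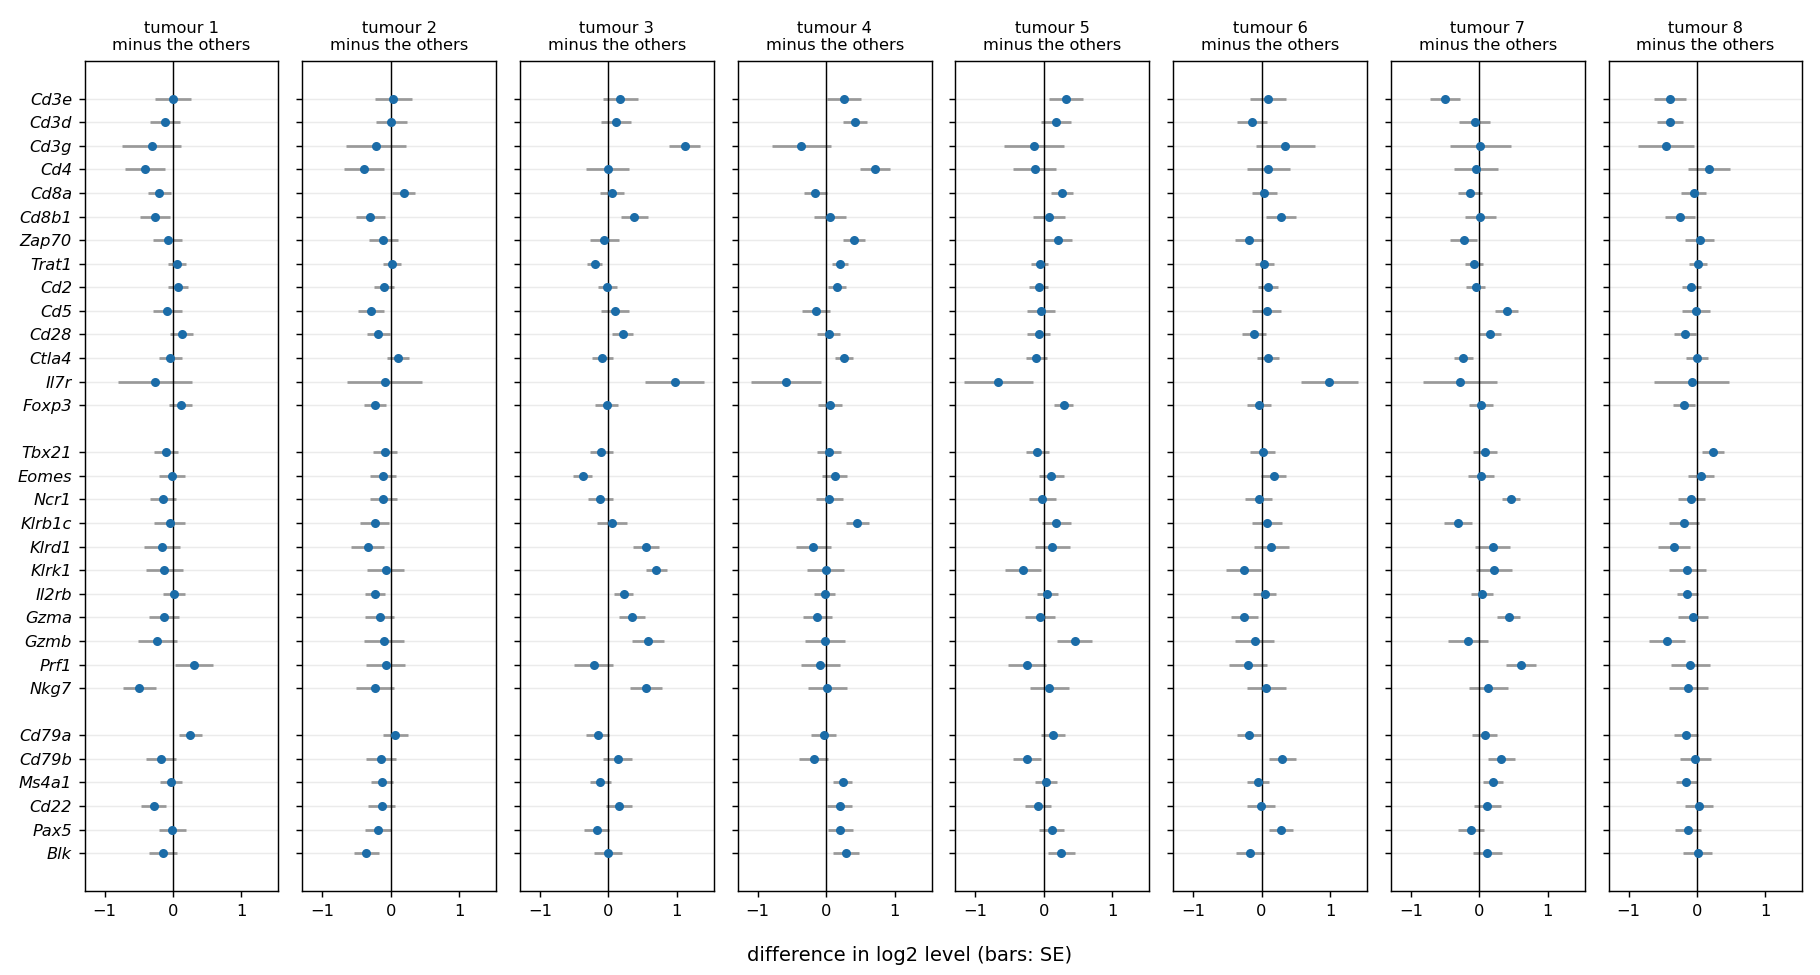
Difference in log2 level between 1 tumour and the mean of the other 7 (x axis, points, with bars of 1 SE from limma) for each lymphocyte gene, 1 panel per tumour. Cd3g, Il7r and Klrk1 lie far right in tumour 3, Cd4 in tumour 4, Il7r in tumour 6 and Prf1 in tumour 7, and tumours 1, 2, 5 and 8 have no gene at such a distance to the right.

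As whole groups the lymphocyte genes moved little. For each gene the mean over the 8 tumours was subtracted, and the genes of a group were then averaged. The T cell genes were highest in tumour 3 (0.17), followed by tumour 6 (0.11), and lowest in tumour 8 (-0.12). The NK and cytotoxic genes were highest in tumours 3 (0.17) and 7 (0.14) and lowest in tumour 2 (-0.14). The B cell genes ran from 0.11 in tumour 4 and 0.10 in tumour 7 to -0.13 in tumour 2, with -0.02 in tumour 3 (0.03 after a second quantile normalization). By gene, 10 of the 31 had their highest level in tumour 4 and 8 in tumour 3, where 17.2% and 11.4% of all genes had theirs. The lowest levels were most often in tumour 2, for 9 of 31 and for 10% of all genes. The median difference of the 31 genes from the other tumours was 0.06 in tumour 3 and 0.05 in tumour 4, against -0.02 and 0.04 over all genes.

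**Figure D4:**
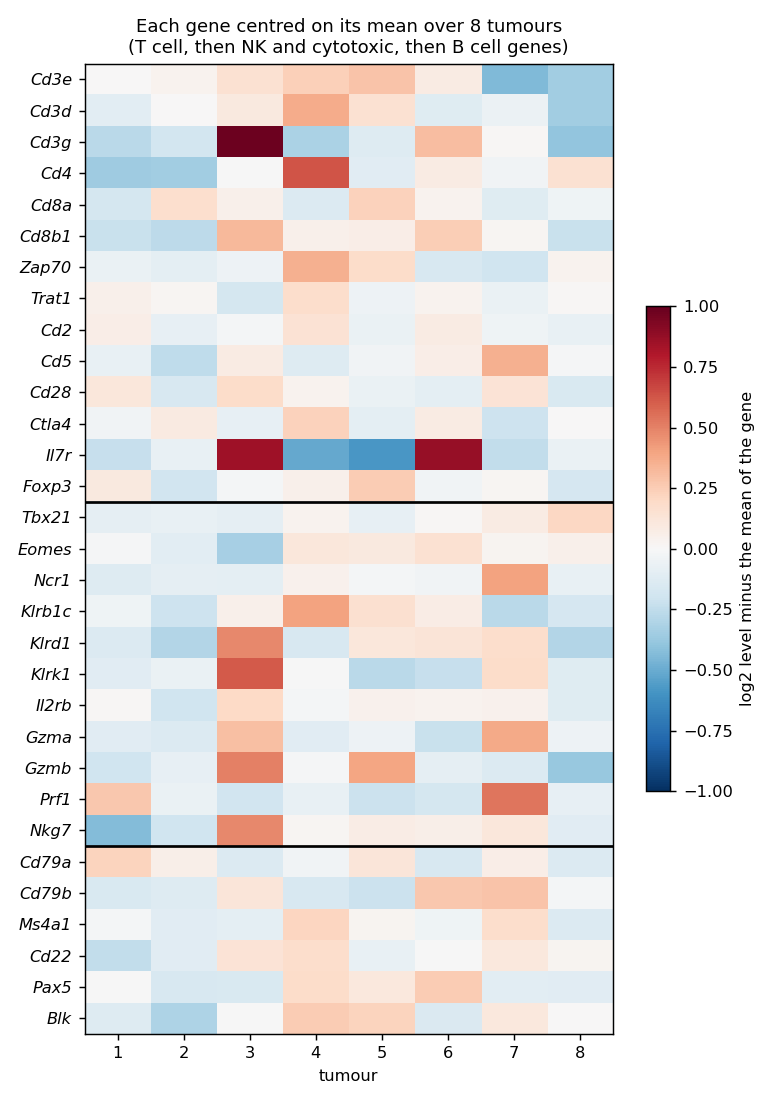
Log2 level of each lymphocyte gene minus its own mean over the 8 tumours (colour), with genes down the page and tumours across. Cd3g is darkest in tumour 3 and Il7r in tumours 3 and 6, and no column is red over all 3 cell types.

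Genes of all leukocytes and of macrophages moved with tumour 3. Of 18 genes that mark leukocytes in general, 15 were above background (limma) and 15 had their highest level in tumour 3. Over all genes 57.3% were above background and 11.4% had their highest level in tumour 3. Ptprc, the CD45 antigen of all leukocytes, reached 7.53 there and 7.10 in tumour 7, and the other 6 lay between 5.77 and 6.84. Cd53 was at 8.27 in tumour 3 and between 6.76 and 7.82 in the other 7, and Selplg, a selectin ligand, was at 8.21 and between 6.88 and 7.94. Of 17 macrophage genes, 15 were above background (limma) and 14 were highest in tumour 3, where their centred mean was 0.60, with -0.46 to 0.31 in the other 7. The next highest centred mean, 0.31, was in tumour 6. Of the macrophage genes above background, Ctss (9.46, with 7.41 to 8.72 in the other 7), Adgre1 (8.04, with 6.39 to 7.77) and Ms4a7 (9.38, with 7.88 to 9.21) had the largest SD. Itgam, an integrin chain of myeloid and NK cells that was not called above background over the tumours, stood 1.30 ± 0.33 above the others in tumour 3 (SE, limma, adjusted p = 0.623), where it was highest, and lay between 5.27 and 6.25 in the other 7. It was chosen after its values were seen. None of the leukocyte or macrophage genes passed the contrast of tumour 3, which has no replicate, with the others. Cd53, Ctss and Adgre1 stood 1.07, 1.27 and 1.03 above the others in tumour 3. Il7r shared its highest tumours, 6 and 3, with Cd48 (6.19 and 6.30, with 5.21 to 5.65 in the other 6) and the adaptor Fyb (5.72 and 5.79, with 4.50 to 5.35), both chosen after their values were seen. This was not particular to them: Cd53, Selplg, Ctss, Adgre1 and Ms4a7 were also highest in tumour 3 and next highest in tumour 6. The part of macrophages in the levels of the lymphocyte genes was not tested.

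**Figure D5:**
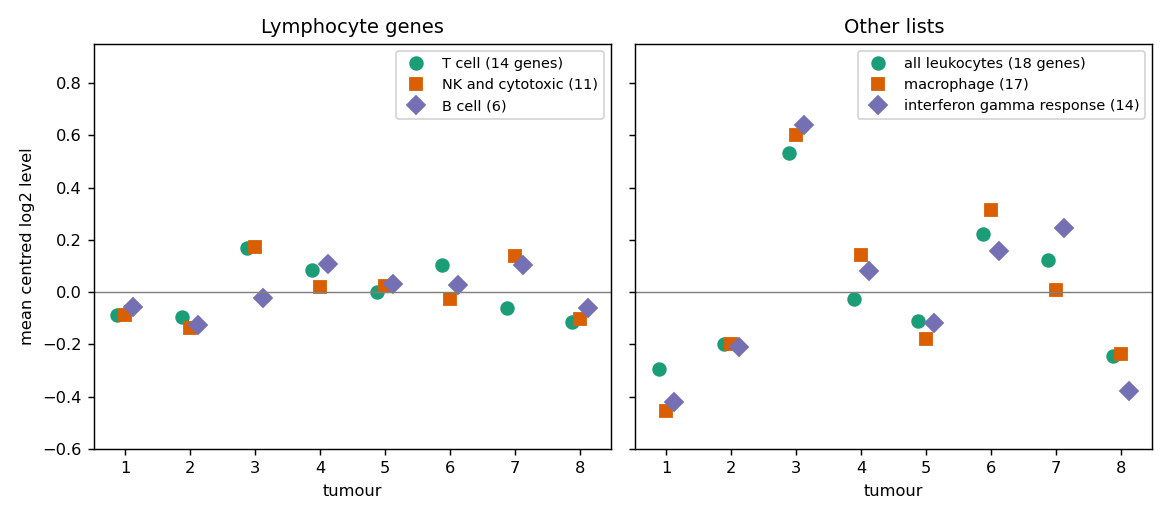
Mean centred log2 level of each gene list (y axis) by tumour (x axis), on 1 scale, for T cell, NK and B cell genes at the left and genes of all leukocytes, macrophages and the interferon gamma response at the right. In tumour 3 the lists at the right reach 0.53 to 0.64 and the T cell and NK lists 0.17.

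Further lymphocyte genes, 57 measured genes of 3 other lists, were also mostly low. Over the tumours 13 of 57 were above background, and 13 to 21 in single tumours, with the most in tumour 6. Of all genes 57.3% were above background over the tumours, and 58.9% to 61.3% in single tumours. Above background were 5 of 18 T cell genes (Lat, Cd6, Ccr7, Bcl11b and Ptcra), 1 of 20 NK and cytotoxic genes (Ccl5) and 7 of 19 B cell genes (Bank1, Tnfrsf13c, Ighm, Mzb1, Cd37, Blnk and Ralgps2), by limma. Ccr7, the receptor that guides T cells to lymph nodes, was at 6.79 in tumour 3 and between 6.25 and 6.41 in the other 7 (0.45 ± 0.16, SE, limma, adjusted p = 0.794), and dendritic cells use it too. Lat, the adaptor that Zap70 phosphorylates, was highest in tumour 1 (7.32, with 6.65 to 7.16 in the other 7) and Ptcra, a chain of the receptor of immature T cells, in tumour 5 (6.43, with 5.96 to 6.36). Ighm, the heavy chain of IgM, averaged 7.26 ± 0.25 (SD, n = 8) and was highest in tumour 5 (7.69). Its symbol covers 7 probe sets, of which the brightest was read, and the mean of the 7 lay below background (-0.37 ± 0.06, SE, limma, adjusted p = 7.18e-05), which ends its call. Blnk, a B cell adaptor that macrophages also express, was at 6.41 in tumour 3 and between 5.53 and 6.04 elsewhere, and Ralgps2 ran from 8.05 in tumour 5 to 8.89 in tumour 8. Jchain, a plasma cell gene, was below background in every tumour (3.39 to 3.83).

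Of those 57 genes, 1 passed a contrast: Bcl11b, a transcription factor of T cells and also of neurons, was at 8.33 in tumour 6 and between 6.18 and 7.17 in the other 7 (1.80 ± 0.32, SE, limma, adjusted p = 0.0462). In the same contrast 0.311% of all genes passed as higher. Tumour 6 was also the one with the lowest levels of the neuronal genes Stmn2 (11.99, with 12.53 to 12.78 in the other 7; -0.65 ± 0.11, SE, limma, adjusted p = 0.0451), Isl1 (10.36, with 10.94 to 11.73), Elavl4 (8.09, with 8.91 to 10.23) and Th (8.59, with 9.17 to 11.34). Ccl5, a chemokine of cytotoxic lymphocytes that macrophages make too, reached 8.32 (tumour 3) and 7.23 (tumour 6), while the other 6 lay between 5.70 and 6.39 (2.14 ± 0.49 for tumour 3, SE, limma, adjusted p = 0.499). It lost its call above background without tumour 6.

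Genes that draw lymphocytes or respond to their interferon gamma were uneven. Above background were 3 of 11 genes of lymphocyte recruitment and 6 of 14 of the interferon gamma response, where 57.3% of all genes were. The highest level fell in tumour 3 for 7 of the 14 response genes and for 11.4% of all genes. The centred mean of the response list was 0.64 in tumour 3 and -0.42 to 0.25 in the other 7. Its median difference from the other tumours was 0.54 in tumour 3 and 0.34 in tumour 4. Over all genes these were -0.02 and 0.04. Each such difference rests on 1 tumour without a replicate. Cxcl9, a chemokine for activated T cells induced by interferon gamma, reached 8.27 (tumour 7), 7.30 (tumour 3) and 7.02 (tumour 6), and the other 5 tumours lay between 5.35 and 5.93. Its receptor Cxcr3 was highest in another tumour, with 6.81 in tumour 5 and 6.22 to 6.49 in the other 7. Cxcl13, a chemokine for B cells, was at 7.81 in tumour 3 and between 5.31 and 6.53 in the other 7 (1.92 ± 0.36, SE, limma, adjusted p = 0.327). Both chemokines were chosen after their values were seen. The MHC class II genes H2-Aa and H2-Ab1 were at 8.85 and 10.29 in tumour 3, and between 5.48 and 8.08 and between 7.14 and 9.44 in the other 7. Tap1, a peptide transporter, was at 7.52 in tumour 3 and between 6.46 and 7.38 elsewhere. Ciita was the 1 response gene with its lowest level in tumour 3 (6.08, with 6.34 to 6.61 in the other 7). It too was chosen after its values were seen. Ifng itself, made by T and NK cells, was below background in all 8 tumours (5.07 to 5.48). Of the lymphocyte homing receptors, Cxcr4 spanned 7.23 (tumour 1) to 9.03 (tumour 8) and S1pr1 spanned 5.53 (tumour 1) to 6.92 (tumour 4). Other cell types than lymphocytes use both.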

How the data were processed

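Total RNA of each tumour (Trizol, biotin label) was hybridised to 1 Affymetrix array, per the labels' protocols. The deposited table holds log2 levels of 41345 probe sets, which the authors made with RMA and Partek 6.5 according to the submitters' processing notes. No source used here gives the genome build behind them or says what each tool did. The platform annotation gives 23521 probe sets 1 symbol and 1814 several, and 16010 are unnamed here. Each gene was read from its single-symbol probe set with the highest mean, under its current symbol in the GRCm38.p6 gene table.

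Detection was tested with limma 3.58.1 (R 4.3.3; trend and robust prior) on the level minus the array background, and single tumours with 8 contrasts of 1 tumour against 7, both over all genes with Benjamini-Hochberg adjustment. Both were also run on simulated data, drawn independently for each gene with known shifts in 1 tumour. No result here rests on that run. Other computations used Python 3.11.15, numpy 2.4.6 and pandas 2.3.3. Alternatives were other background levels, the mean of all probe sets, a second quantile normalization, eBayes without trend or robust prior, adjustment over all 8 contrasts, and leaving out each tumour. The text names every lymphocyte gene, the 3 detected genes with the largest SD of each other list, and listed genes that passed a contrast. Detected genes of the other lymphocyte lists were also named, and others were chosen after their values were seen. The lymphocyte genes and the lists were chosen with earlier results of these data known.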

Additional observations from a re-analysis of the deposited data

Results flagged for a closer look

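Ncr1 was the 1 lymphocyte gene of 31 in which a single tumour lay far from the others. The gap between tumour 7 (5.29) and the next highest tumour (4.93) was 0.682 of the whole range, past Dixon's critical value of 0.526 for 8 samples, all at levels below background. Chance flags about 1 in 20 groups, and 7.85% of all genes passed on these arrays. Among the other genes named, Ccr7 stood apart in tumour 3 (6.79, with 6.25 to 6.41 in the other 7, ratio 0.700), Mzb1 in tumour 1 (6.19, with 5.59 to 5.85 in the other 7, ratio 0.566), Bcl11b in tumour 6 (8.33, ratio 0.541), Cxcr3 in tumour 5 (6.81, ratio 0.531) and Stmn2 in tumour 6, where it was low (11.99, ratio 0.679). The centred mean of the neuronal list was also low in tumour 6 (-0.72, with -0.12 to 0.42 in the other 7, ratio 0.527).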

How the results depend on the processing

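No lymphocyte gene passed a contrast under any alternative run, and the lowest adjusted p (limma) was 0.056, without tumour 6, for Cd3g in tumour 3. Leaving out a tumour also removes its own contrast. Pairs of gene and tumour at an unadjusted p under 0.05 were compared with the same 7 contrasts on all tumours. They were fewer without tumour 1, 2, 4, 5, 6 or 8, more without tumour 3 and equal in number without tumour 7. The background level decided the other counts. At the 99th percentile of the receptor genes, 0 of 31 lymphocyte genes were detected (0 T, 0 NK, 0 B), with 1 other T, 0 other NK, 3 other B, 6 leukocyte, 2 interferon gamma and 1 recruitment gene. At the 75th percentile, 24 were (11 T, 7 NK, 6 B), with 15 other T, 12 other NK, 15 other B, 13 interferon gamma and 9 recruitment genes. Lymphocyte genes above background in tumours 1 to 8 numbered 1, 0, 2, 0, 1, 2, 2 and 1 at the 99th percentile and 24, 25, 30, 26, 26, 27, 26 and 23 at the 75th. The share of all genes above these levels in single tumours is not given here, so the counts do not rank the tumours. Tumour 3, with the count of 30, also had the lowest background in the main setting (5.45). At the 99th, the means of Cd4 (-0.73), Tbx21 (-0.68), Nkg7 (-0.052) and Cd22 (-0.53) turned below background. At the 75th, 22 means turned above it: Cd3e 0.88, Cd3d 0.60, Cd3g 0.30, Cd8a 0.86, Cd8b1 0.75, Zap70 1.19, Cd2 0.68, Cd5 1.38, Cd28 0.81, Ctla4 0.000863, Il7r 1.37, Foxp3 0.52, Eomes 1.14, Ncr1 0.75, Klrb1c 0.021, Il2rb 0.62, Gzmb 0.65, Cd79a 1.23, Cd79b 1.11, Ms4a1 0.12, Pax5 1.13 and Blk 0.88.

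Leaving out each tumour kept 5 lymphocyte genes detected. The mean of Il7r lay between -0.21 and 0.017 (0.012 without tumour 4, 0.017 without tumour 5). Ccl5, the 1 detected gene of the other NK list, lost its call without tumour 6, which gives 0 to 1 detected there. Genes with a single tumour far from the rest numbered 1 to 3 of 31. The cause of these changes was not tested. The other probe set summary, the second normalization and the plain eBayes prior changed no call of a lymphocyte gene among the 31 and no sign of its mean against background. On the other lists, Ighm lost its call with the mean of its probe sets (6 other B genes), and Cxcl9 gained one with the plain prior (adjusted p = 0.0426, limma; 7 interferon gamma genes). No paired analysis was possible because the tumours form 1 group. The 8 arrays and the signal over background limit all values.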
